A study of Mus musculus with 4 samples.

Results

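Type 17 immunity rests on lymphocytes that make interleukin-17 (IL-17). In many tissues a large share of the early IL-17 comes from gamma-delta T cells, whose antigen receptor pairs a gamma with a delta chain in place of the alpha and beta chains of helper and cytotoxic T cells. These cells sense IL-23 and IL-1 beta from myeloid cells and depend on IL-7 for survival. The genes described here are the 8 that mark this programme in T cells: the cytokines Il17a and Il17f, the receptors Il23r, Ccr6, Il17re and Il7r, the scavenger receptor gene Cd163l1 and the kinase gene Blk. They were chosen by gene symbol, and they are 8 of the 31053 genes listed in the deposited count matrices.

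CD45+ immune cells were sorted from the spinal cord of 3-month-old C57BL/6 mice and sequenced on a droplet platform that counts each RNA molecule at its 3′ end by a unique molecular identifier (UMI). There were 4 libraries, 1 per condition. A sham library was made by standard dissociation, and a second sham library was made with actinomycin D (ActD), which blocks transcription during dissociation. An injury library was made at 3 days and another at 14 days after a thoracic contusion (3 and 14 dpi). Per the study's text both were also dissociated with ActD, which their labels do not name. The sham mice received the surgery without the contusion. The study used 30 mice, males and females in equal number, over its control, 3 dpi and 14 dpi groups, and how many entered each library is not given in the sources used here. CD45 was the only sort, so no T cell was enriched.

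After filtering, the libraries held 5035 cells (sham, standard), 2135 cells (sham, ActD), 8214 cells (3 dpi) and 9078 cells (14 dpi), with between 25739742 and 95757564 UMIs in each. Pairs of libraries shared from 3 to 36 cell barcodes, of 2439 to 11631 barcodes per library. The 3 dpi library carries software version 3.0.1 in its matrix header and the 14 dpi library 3.1.0, so software and day cannot be told apart. With 1 library per condition no difference between conditions or classes could be tested, and cells of a library are not replicates. Each value therefore stands with an exact 95% interval (Clopper-Pearson for a share, Poisson for a level) that covers counting error only. Where no UMI was found, the limit given is the one that a count of 0 allows, 3 counts of the total. A fold given as at least some value uses this limit for the class without UMIs. It leaves out the counting error of the other class, so the interval of the ratio can start lower.

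Cells were placed in classes by UMI thresholds. A Cd3-positive cell held at least 2 UMIs over Cd3d, Cd3e and Cd3g, the invariant chains of the T cell receptor, and fewer than 2 UMIs over B cell or myeloid genes. A Trdc-positive cell held in addition at least 1 UMI of Trdc, the constant part of the delta chain. Natural killer (NK), B and myeloid cells were taken in the same way from genes of their own and served as background. At 14 dpi there were 90 Trdc-positive and 621 other Cd3-positive cells, 203 NK cells, 470 B cells and 6408 myeloid cells, and at 3 dpi 20, 359, 23, 104 and 6528. These classes are ranges of UMI counts rather than cell types. At 14 dpi 4 of the 90 Trdc-positive cells held a single Trdc UMI and 1 held only 2 Cd3 UMIs, while at 3 dpi 2 of the 20 held a single Trdc UMI.

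T cell genes that the gate did not use were present in the Trdc-positive cells to unequal degrees. At 14 dpi Trbc2 was detected in 87.8% of them and Thy1 in 80.0%, whereas Trac, Lck and Cd2 were each detected in 24.4%. Other Cd3-positive cells had Trac in 84.9%, Lck in 83.4% and Cd2 in 74.7%. Lck and Cd2 were also more frequent in NK cells, at 70.0% and 58.6%, and Cd2 was found in 23.4% of B cells. Markers of NK cells were found in part of them: Nkg7 in 27 of the 90 cells, Klrd1 in 19, Prf1 in 8, Gzma in 4 and Ncr1 in 3. B cell markers were mixed. Cd79b, a signalling chain of the B cell receptor, was found in 21 Trdc-positive cells (23.3%, against 4.03% of other Cd3-positive and 1.48% of NK cells). Ighm was found in 15 (16.7%), less often than in other Cd3-positive (36.6%) and NK cells (41.9%). Cd79a and Ebf1 were found in 1 Trdc-positive cell each and Pax5 in none. Abundant myeloid RNA was spread over all lymphoid classes. Lyz2, the macrophage and neutrophil lysozyme, was at 14 dpi in 61.1% of Trdc-positive, 67.8% of other Cd3-positive, 69.5% of NK and 66.6% of B cells. The median was 1 UMI in each class. Lyz2 was more frequent at 3 dpi, in 19 of 20, 358 of 359, 23 of 23 and 104 of 104 cells of these classes. Median UMIs there were 12, 10, 8 and 8. S100a8, another myeloid gene, went the other way, with 13 of 20 Trdc-positive cells at 3 dpi and 74 of 90 at 14 dpi. It did so too in other Cd3-positive (53.5 and 81.8%), NK (73.9 and 81.3%) and B cells (46.2 and 76.6%). The part of such RNA in differences between the days was not tested. NK cells are known to carry Trdc RNA without a delta chain receptor, and 48 of the 203 NK cells had a Trdc UMI at 14 dpi.

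The Trdc-positive share of Cd3-positive cells was 5.28% at 3 dpi (20 of 379, interval 3.25 to 8.03%) and 12.7% at 14 dpi (90 of 711, 10.3 to 15.3%), so the intervals did not overlap. Trdc-positive and other Cd3-positive cells were shallower at 3 dpi, with medians of 3407 and 3733 UMIs against 4757.5 and 5184. The share was not computed at equal depth, so the part of depth in this difference was not tested. In sham it was 2 of 33 cells in the standard and 3 of 22 in the ActD library, with intervals that ran from 0.743 to 20.2% and from 2.91 to 34.9% and held both injury values.

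Il17a encodes IL-17A, the founding cytokine of the family, and lies on chromosome 1 from 20730905 to 20734496 on the plus strand (ENSMUSG00000025929, GRCm38). Il17f encodes the related IL-17F and follows 42.6 kb further on, from 20777146 to 20790617 on the minus strand (ENSMUSG00000041872). Il23r, from 67422932 to 67491855 on the minus strand of chromosome 6 (ENSMUSG00000049093), encodes the receptor chain that binds IL-23. The 250 bases before the RefSeq starts of the pair of cytokine genes (build GRCm38.p6) are shown because these neighbouring genes were detected so differently. They are written 5′ to 3′ on the gene's strand. The letters TATAAA, the core of the TATA box that positions the start of transcription, are in capitals. This motif was chosen after the values were seen.
Il17a promoter, chr1:20730655-20730904, plus strand: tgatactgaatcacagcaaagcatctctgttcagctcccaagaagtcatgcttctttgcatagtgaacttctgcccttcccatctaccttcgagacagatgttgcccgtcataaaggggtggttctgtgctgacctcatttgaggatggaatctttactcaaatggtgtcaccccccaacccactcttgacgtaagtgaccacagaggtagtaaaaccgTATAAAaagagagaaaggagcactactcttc
Il17f promoter, chr1:20784271-20784520, minus strand: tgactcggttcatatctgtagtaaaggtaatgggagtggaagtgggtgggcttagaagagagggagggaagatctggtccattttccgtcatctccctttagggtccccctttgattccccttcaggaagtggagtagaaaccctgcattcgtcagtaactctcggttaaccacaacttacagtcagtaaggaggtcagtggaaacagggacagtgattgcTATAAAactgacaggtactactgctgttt

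The match began 31 bases before the start of Il17a and 29 bases before that of Il17f. The RefSeq start of Il17f lies inside the longer gene of the GENCODE annotation. RefSeq held a promoter for 7 of the 8 genes, and the cytokine genes were the 2 of those 7 with a match to TATAAA or its complement TTTATA in the 250 bases. A match on either strand was found in 12.4% of all 32851 RefSeq promoters. A match describes the letters only and says nothing of binding.

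The 2 cytokines differed widely in how often they were seen. At 14 dpi Il17a was detected in 49 of the 90 Trdc-positive cells (54.4%, 43.6 to 65.0%), in 17 of 621 other Cd3-positive cells (2.74%, 1.60 to 4.35%), in none of the 203 NK cells, which allows a share of up to 1.48%, in none of the 470 B cells, which allows up to 0.638%, and in 4 of 6408 myeloid cells (0.0624%). The level, as CPM, the UMIs of the gene in each 1000000 UMIs of the class, was 524 CPM (459 to 595) in Trdc-positive cells against 15.9 CPM in other Cd3-positive cells. The log2 ratio between these classes was 5.03 (4.61 to 5.49). Positive Trdc-positive cells held 1 to 23 Il17a UMIs with a median of 3, and 11 of the 49 held a single one. Among the 17 other Cd3-positive cells with Il17a, 10 held a single UMI and the 3 highest cells held 57.4% of the 54 UMIs. The order was the same with every cell thinned to 1000 UMIs, where 27.8% of Trdc-positive and 1.13% of other Cd3-positive cells held Il17a. In all, Trdc-positive cells held 76.1% of the Il17a UMIs of the kept cells at 14 dpi, and Cd3-positive cells together 93.5%.

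At 3 dpi Il17a was detected in 5 of the 20 Trdc-positive cells (25.0%, 8.66 to 49.1%) with 30 UMIs, of which the 3 highest cells held 93.3%. It was detected in none of the 359 other Cd3-positive cells, which allows a share of up to 0.836%, and in 3 of the 6528 myeloid cells. Thinned to 1000 UMIs, 4 of the 20 cells still held it. The level in Trdc-positive cells was 383 CPM, at least 191-fold higher than in other Cd3-positive cells when the latter are set to 3 counts over the class. The interval of the log2 ratio began at 7.19.

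Il17f was rare. At 14 dpi 2 of the 90 Trdc-positive cells held 5 and 1 UMIs, and 2 of the 621 other Cd3-positive cells held 1 UMI each. No Il17f UMI was found in NK, B or myeloid cells at 14 dpi. At 3 dpi a single Trdc-positive cell held all 16 Il17f UMIs of its class, and this cell also held Il17a, Ccr6, Blk and Il7r. A level of 204 CPM at 3 dpi against 13.3 CPM at 14 dpi thus rested on 1 cell.

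**Figure D1:**
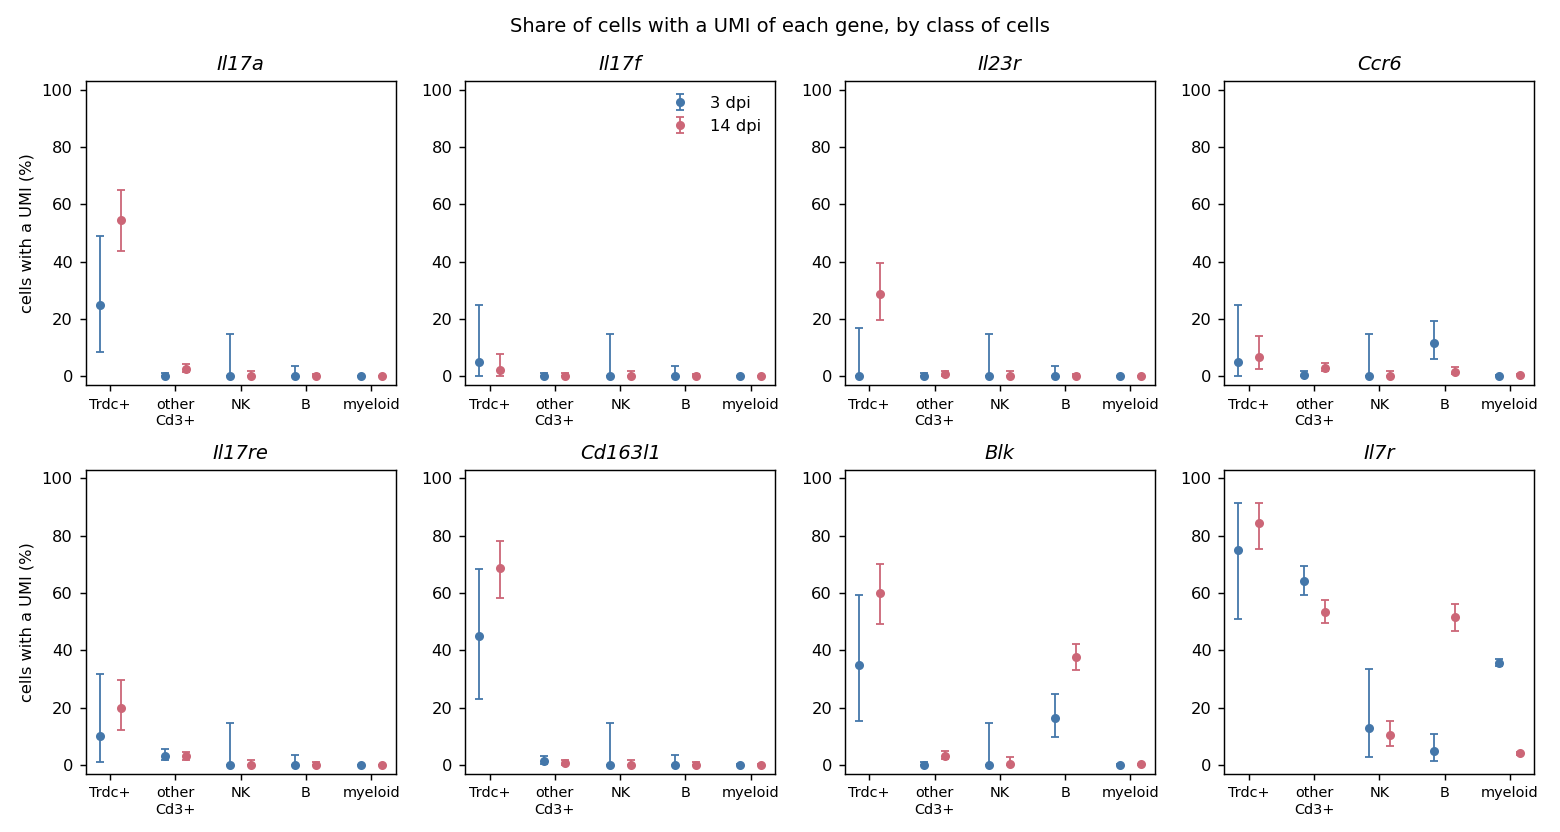
Share of cells with at least 1 UMI of each of the 8 genes (y axis, percent) in the Trdc-positive, other Cd3-positive, NK, B and myeloid classes at 3 and 14 dpi, with exact 95% binomial intervals. At 14 dpi Il17a (54.4%), Cd163l1 (68.9%) and Blk (60.0%) stand high in Trdc-positive cells, while Il7r is also frequent in other Cd3-positive (53.5%) and B cells (51.5%).

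Among the receptors Il23r had the sharpest pattern. At 14 dpi it was detected in 26 of 90 Trdc-positive cells (28.9%, 19.8 to 39.4%), in 5 of 621 other Cd3-positive cells (0.805%) and in 1 of 6408 myeloid cells, and in no NK or B cell. Its level was low even where it was found: 71.0 CPM in Trdc-positive cells, with a single UMI in 21 of the 26 positive cells. The log2 ratio over other Cd3-positive cells was 5.47 (4.22 to 7.31). At 3 dpi no Il23r UMI was found in the 20 Trdc-positive cells, which allows a share of up to 15.0%. These cells were shallower, with a median of 3407 UMIs against 4757.5. With cells thinned to 1000 UMIs the share at 14 dpi was 8.89% (3.92 to 16.8%), under that limit. Thinned to 2000 UMIs it was 19.8% of 86 cells, above that limit, with an interval that included the limit. None of the 20 cells at 3 dpi held Il23r at either depth. The place of the 14 dpi share against the limit thus depended on depth, and a difference between the days was not tested.

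Ccr6 (chromosome 17, 8236043 to 8257141, plus strand, ENSMUSG00000040899) encodes the receptor for the chemokine CCL20. It was detected in 6 of 90 Trdc-positive cells at 14 dpi (6.67%, 2.49 to 13.9%), in 18 of 621 other Cd3-positive cells (2.90%, 1.73 to 4.54%), in 8 of 470 B cells (1.70%), in 37 of 6408 myeloid cells (0.577%) and in no NK cell. The intervals of both T cell classes overlapped, and the log2 ratio of 1.57 had an interval from 0.13 to 2.75. Only 7.69% of the kept Ccr6 UMIs at 14 dpi were in Trdc-positive cells, the smallest fraction of the 8 genes. At 3 dpi the highest share was in B cells, 12 of 104 (11.5%, 6.11 to 19.3%), against 1 of 20 Trdc-positive and 2 of 359 other Cd3-positive cells. Ccl20 itself had no UMI in any of the 5 classes on either day.

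Il17re (chromosome 6, 113458484 to 113470758, plus strand, ENSMUSG00000043088) encodes the receptor chain for IL-17C. At 14 dpi it was detected in 18 of 90 Trdc-positive cells (interval 12.3 to 29.8%) and in 19 of 621 other Cd3-positive cells (3.06%, 1.85 to 4.74%), with a log2 ratio of 3.07 (2.25 to 3.89). It was absent from NK cells and found in 1 B cell and 4 myeloid cells. At 3 dpi other Cd3-positive cells showed much the same share, 12 of 359 (3.34%), and Trdc-positive cells 2 of 20 (interval 1.23 to 31.7%).

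Il7r (chromosome 15, 9505788 to 9530176, minus strand, ENSMUSG00000003882) encodes the IL-7 receptor alpha chain, which naive and memory T cells and B cell precursors also use. It was the most frequent of the 8 genes in Trdc-positive cells, in 76 of 90 at 14 dpi (84.4%, 75.3 to 91.2%) and in 15 of 20 at 3 dpi (75.0%, 50.9 to 91.3%). Other Cd3-positive cells had it in 332 of 621 at 14 dpi (53.5%, 49.5 to 57.4%) and in 231 of 359 at 3 dpi (64.3%, 59.1 to 69.3%). The log2 ratio between the classes was 1.16 (0.99 to 1.32) at 14 dpi and 0.36 (−0.10 to 0.77) at 3 dpi, so at 3 dpi the interval included 0. With trimmed mean of M-values (TMM) factors the ratio at 14 dpi was 0.97, just under 2-fold.

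Outside T cells Il7r differed widely between the days. In B cells it was detected in 5 of 104 at 3 dpi (4.81%, 1.58 to 10.9%) and in 242 of 470 at 14 dpi (51.5%, 46.9 to 56.1%), and with every cell thinned to 1000 UMIs in 2.88% and 24.3%. In myeloid cells the order was the opposite, 2332 of 6528 (35.7%, 34.6 to 36.9%) at 3 dpi and 268 of 6408 (4.18%, 3.71 to 4.70%) at 14 dpi, or 6.44% and 0.734% when thinned. The myeloid difference was seen in cells with Adgre1 and no Csf3r UMI, 81.9 against 6.67 CPM, and in cells with Csf3r and no Adgre1 UMI, 62.8 against 4.28 CPM. Cells with UMIs of both genes, 1832 at 3 dpi and 3020 at 14 dpi, were at 55.3 and 5.80 CPM. Adgre1 was taken as a gene of macrophages and microglia and Csf3r as one of neutrophils. With so many cells holding both, these sets are not cell types. This split was chosen after the values were seen. NK cells had Il7r in 21 of 203 cells at 14 dpi (10.3%) and in 3 of 23 at 3 dpi.

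Cd163l1 (chromosome 7, 140218267 to 140231145, plus strand, ENSMUSG00000025461) encodes SCART1, a scavenger receptor family protein described on IL-17-producing gamma-delta T cells. Of the 8 genes it had the largest fraction of its kept UMIs in Trdc-positive cells at 14 dpi, 87.1%. At 14 dpi it was detected in 62 of 90 of them (68.9%, 58.3 to 78.2%) and in 4 of 621 other Cd3-positive cells (0.644%, 0.176 to 1.64%), 1 of 470 B cells, 9 of 6408 myeloid cells and no NK cell. The level was 736 against 2.36 CPM in both T cell classes, a log2 ratio of 8.20 (7.29 to 9.51). Positive cells held 1 to 13 UMIs with a median of 5. At 3 dpi it was detected in 9 of 20 Trdc-positive (45.0%, 23.1 to 68.5%) and 5 of 359 other Cd3-positive cells (1.39%), with a log2 ratio of 6.66 (5.49 to 8.30).

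Blk (chromosome 14, 63372836 to 63417037, minus strand, ENSMUSG00000014453) encodes a Src family kinase best known from B cells. At 14 dpi it was detected in 54 of 90 Trdc-positive cells (60.0%, 49.1 to 70.2%), above the share in B cells, 177 of 470 (37.7%, 33.3 to 42.2%), and far above that in other Cd3-positive cells, 20 of 621 (3.22%, 1.98 to 4.93%). The level was 346 CPM in Trdc-positive, 96.7 CPM in B and 11.2 CPM in other Cd3-positive cells, with a log2 ratio between the T cell classes of 4.93 (4.43 to 5.50). Of the B cell markers Cd79b was detected in 21, Ighm in 15, Cd79a and Ebf1 in 1 each and Pax5 in 0 of the 90 Trdc-positive cells, and their part in the Blk level was not tested. At 3 dpi Blk was detected in 7 of 20 Trdc-positive cells (35.0%, 15.4 to 59.2%), in 17 of 104 B cells (16.3%) and in none of 359 other Cd3-positive cells, which allows a share of up to 0.836%. Thinned to 1000 UMIs, Blk was found in none of the 20 cells at 3 dpi, which allows up to 15.0%, and in 22.2% at 14 dpi. Thinned to 2000 UMIs, it was found in 25.0% (8.66 to 49.1%) at 3 dpi and 45.3% (34.6 to 56.5%) at 14 dpi, with intervals that overlapped.

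Of the 8 genes 7 had at least 20 UMIs over both T cell classes at 14 dpi, and all 7 were past 2-fold higher in Trdc-positive cells, where 7.86% of the 8928 genes with that many UMIs were past 2-fold higher and 6.47% past 2-fold lower. Il17f, with 8 UMIs, fell under this limit. The 7 log2 ratios ran from 1.16 (Il7r) to 8.20 (Cd163l1) with a median of 4.93, against a median of 0.13 over all genes. TMM factors lowered every log2 ratio by 0.18. They moved the genes past 2-fold from 702 higher and 578 lower to 475 higher and 801 lower, and left 6 of the 7 members past 2-fold. The members were picked as type 17 genes with earlier results of these data known, so the count describes the list and is no test of it.

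At 3 dpi only 3 members had 20 UMIs over both classes. Il17a and Cd163l1 were past 2-fold higher and Il7r was not, where 15.0% of 6727 genes were past 2-fold higher and 13.1% lower. Blk had 10 UMIs in Trdc-positive and 0 in other Cd3-positive cells, at least 63.5-fold higher with the latter set to 3 counts. The interval of its log2 ratio began at 5.42. The Trdc-positive class held 78349 UMIs at 3 dpi and 450812 at 14 dpi, so the ratios at 3 dpi are far less precise.

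**Figure D2:**
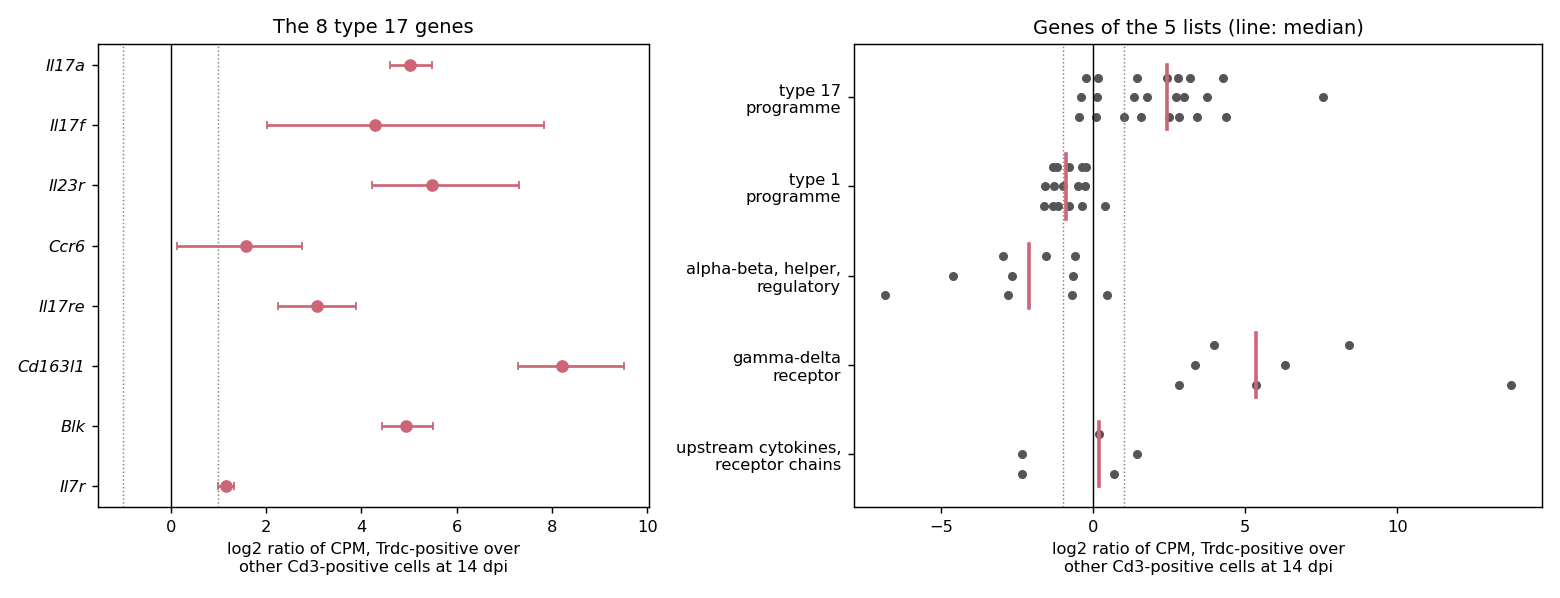
Log2 ratio of CPM in Trdc-positive over other Cd3-positive cells at 14 dpi (x axes; dotted lines mark 2-fold), on the left for the 8 members with exact conditional 95% intervals and on the right for each gene of 5 gene lists with 20 UMIs or more, with the list's median as a line; genes without UMIs in a class are drawn with 0.5 UMIs added and are no bound. Cd163l1 lies at 8.20 and Il7r at 1.16, and the list medians run from −2.11 (alpha-beta, helper and regulatory genes) to 5.35 (gamma-delta receptor genes).

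Between the days the members did not move as 1 group within Trdc-positive cells. Of 7 members with enough UMIs 3 were past 2-fold higher at 14 dpi than at 3 dpi, where 16.9% of 3882 genes were, and 1 was past 2-fold lower, where 6.00% were. Blk had a log2 ratio of 1.37 (0.52 to 2.53), Il17re 1.04 (−0.65 to 4.45), and Il23r had 32 UMIs against 0, at least 1.85-fold higher, so its place past 2-fold rests on the 0.5 UMIs added to each class. The member that was lower was Il17f (−3.87), whose UMIs at 3 dpi were those of the single cell described above. Il17a had a log2 ratio of 0.43 with an interval that included 0 (−0.10 to 1.05), Cd163l1 0.74 (0.25 to 1.32) and Il7r 0.44 (0.02 to 0.91), against a median of 0.22 over all genes.

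In other Cd3-positive cells 5 members had enough UMIs for the same comparison, and 3 were past 2-fold higher at 14 dpi, where 7.22% of 9412 genes were, and none past 2-fold lower, where 5.96% were. Il17a was at least 7.93-fold higher (54 UMIs against 0) and Blk at least 5.58-fold higher (38 against 0). The intervals of their log2 ratios began at 2.64 and 2.11. Ccr6 had a log2 ratio of 1.44 with an interval that included 0 (−0.12 to 4.01). Il7r had −0.35 (−0.48 to −0.22) and Il17re −0.41 (−1.36 to 0.63).

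The genes were then followed cell by cell. Of the 90 Trdc-positive cells at 14 dpi, 69 held UMIs of at least 2 members (76.7%, 66.6 to 84.9%), against 43 of 621 other Cd3-positive cells (6.92%, 5.06 to 9.21%), 107 of 470 B cells, 8 of 6408 myeloid cells and none of 203 NK cells. Without Il7r 64 Trdc-positive cells (71.1%), 25 other Cd3-positive cells (4.03%), 5 B cells and no myeloid cell held at least 2 members. At 3 dpi 12 of 20 Trdc-positive (60.0%) and 16 of 359 other Cd3-positive cells (4.46%) held at least 2, and without Il7r only 1 of the latter.

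The number of members per Trdc-positive cell had a low and a high peak at 14 dpi. There were 10 cells with none, 11 with 1 and 5 with 2, followed by 17 with 3, 23 with 4, 16 with 5, 7 with 6 and 1 with 7 members. The median was 4. Of the other Cd3-positive cells 282 held none and 296 held 1. The combination seen most often among Trdc-positive cells was Il17a, Cd163l1, Blk and Il7r with no other member (14 cells), and the same 4 genes with Il23r made 8 more. Il7r alone was seen in 10 cells. All of Il17a, Cd163l1 and Blk were detected in 37 of 90 Trdc-positive cells (41.1%, 30.8 to 52.0%) and in 2 of 621 other Cd3-positive cells, and at least 1 of these 3 genes in 70 of 90 (77.8%) and 30 of 621 (4.83%).

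**Figure D3:**
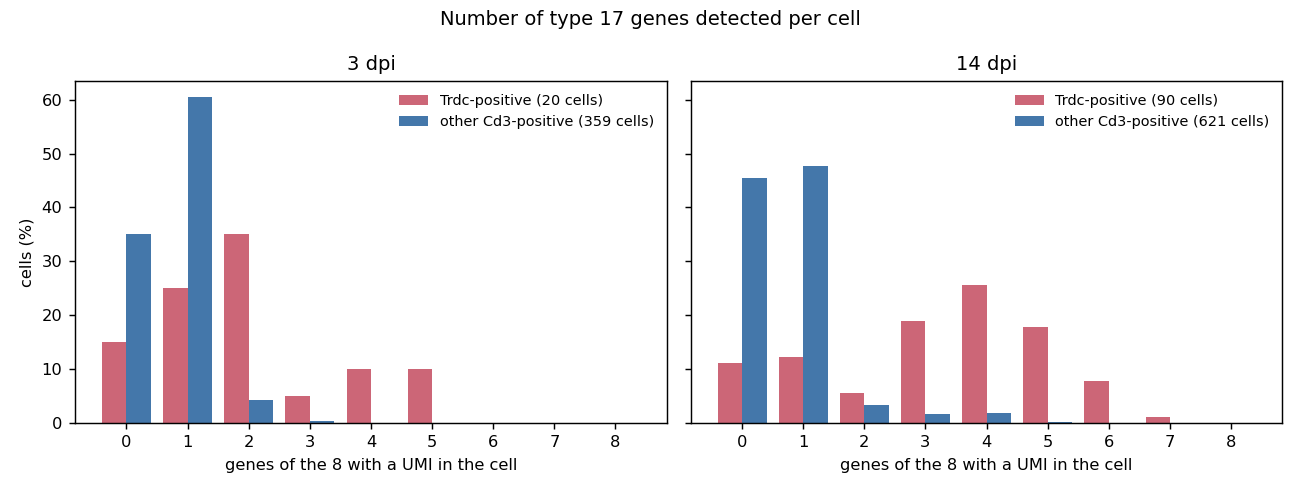
Share of cells (y axis, percent) by the number of the 8 members detected per cell (x axis) in Trdc-positive and other Cd3-positive cells. At 14 dpi the Trdc-positive cells have a median of 4 members, while 282 and 296 of the 621 other Cd3-positive cells hold none and 1.

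The Trdc-positive cells without the programme overlapped with those carrying NK genes. Of the 90 cells 10 passed the NK thresholds as well, and none of these held at least 2 members: no UMI of Il17a, Cd163l1 or Blk was found in them, Il7r was found in 4, Cd27 in 5 and Ifng in 2. Their median depth was 6576.5 UMIs. Of the other 80 cells, with a median of 4607.5 UMIs, 69 held at least 2 members (86.2%). At 3 dpi none of the 20 Trdc-positive cells passed the NK thresholds, and only 12 of them held at least 2 members. A Trac UMI, from the alpha chain locus that encloses Trdc, was found in 22 of the 90 cells. Among these 16 (72.7%) held at least 2 members, and among the 68 without it 53 (77.9%) did. This last split was chosen after the values were seen.

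Within Trdc-positive cells at 14 dpi the members were detected in the same cells more often than in the remainder. Of the 49 cells with Il17a 44 held Cd163l1 (89.8%), against 18 of the 41 without it (43.9%). Blk was found in 41 of 49 against 13 of 41, Il23r in 21 against 5, Il17re in 15 against 3 and Il7r in 46 against 30. The cells with Il17a were not deeper, with a median of 4398 UMIs against 5076. Ccr6 did not follow this pattern, with 4 against 2 cells. All 6 Ccr6-positive cells held Blk and Il7r, none held Il17re, and both Il17f-positive cells were among them. Cd163l1 parted the cells in a like manner: of the 62 cells with it 47 held Blk, 25 held Il23r and 60 held Il7r, against 7, 1 and 16 of the 28 without it. Both the 41 cells without Il17a and the 28 without Cd163l1 included the 10 cells that passed the NK thresholds. No UMI of Blk, Il23r or Il17re was found in these 10 cells, and Il7r was found in 4.

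**Figure D4:**
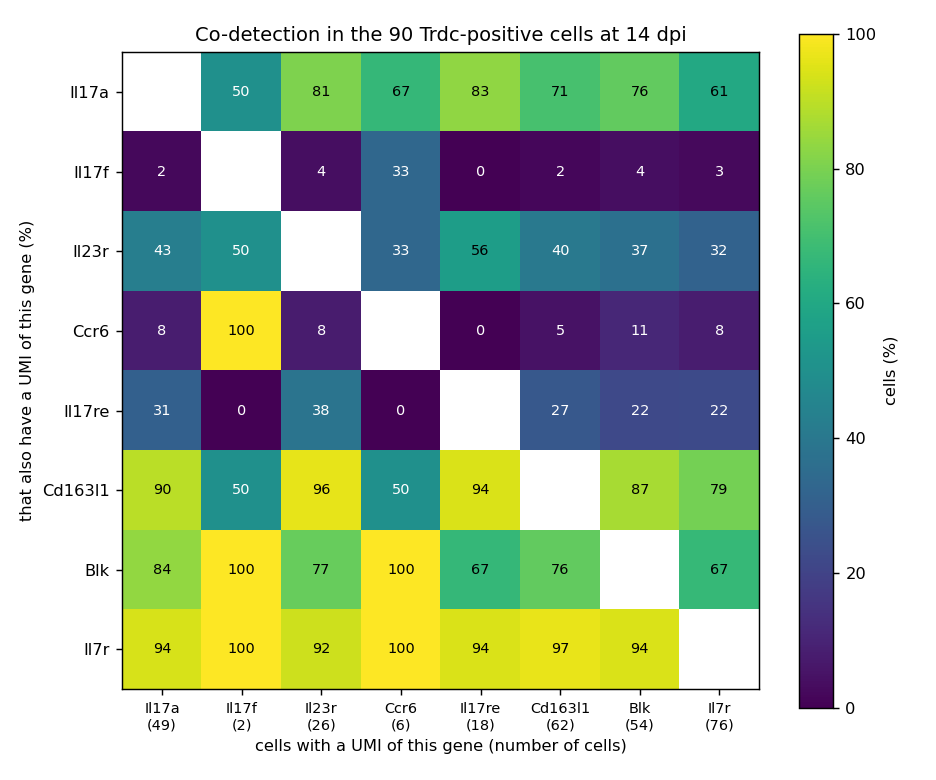
Percent of Trdc-positive cells at 14 dpi with the second gene among cells with the first gene, for each pair of members. Cd163l1 was found in 89.8% of the cells with Il17a.

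Several genes outside the 8 were also more frequent in the cells with Il17a, though not all. Tcrg-C1, a gamma chain constant gene, was detected in 49 of 49 cells with Il17a and 22 of 41 without, Trdv4, a delta variable segment, in 45 and 17, and Tcrg-V6, the gamma variable segment known from IL-17-producing cells, in 19 and 4. Maf was found in 44 and 18, Zbtb16, which encodes the innate-like T cell factor PLZF, in 20 and 3, and Il1r1, the IL-1 receptor, in 27 and 8. In the opposite direction Ifng was found in 0 and 6 cells, Cd27, a costimulatory receptor of interferon-producing gamma-delta T cells, in 2 and 12, and the NK receptor gene Klrb1c in 1 and 11. The 10 cells that passed the NK thresholds were all without Il17a, and Ifng was found in 2 and Cd27 in 5 of them. The shares were close for 5830411N06Rik (2 and 3 cells) and Csf2 (7 and 6). Cd4 was detected in none of the 90 cells.

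The 17 other Cd3-positive cells with Il17a shared part of this make-up. Blk was found in 9 and Il17re in 9 of them, Il7r in 14, Ccr6 in 3, and Il23r and Cd163l1 in 2 each, against 11, 10, 318, 15, 3 and 2 of the 604 without Il17a. Their receptor genes were mixed: 8 of the 17 held Tcrg-C1, against 27 of 604, and 6 held Trac, against 521 of 604. Cd4 was found in 1 of the 17 and in 208 of the 604, so few of the Il17a-positive cells outside the Trdc-positive class carried the helper T cell marker at this depth. Maf was found in all 17, Icos in 15, Zbtb16 in 7 and Csf2, the gene of the cytokine GM-CSF, in 4. Median depths were 5208 and 5182.5 UMIs. How many of them are gamma-delta T cells whose Trdc was missed was not tested.

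**Figure D5:**
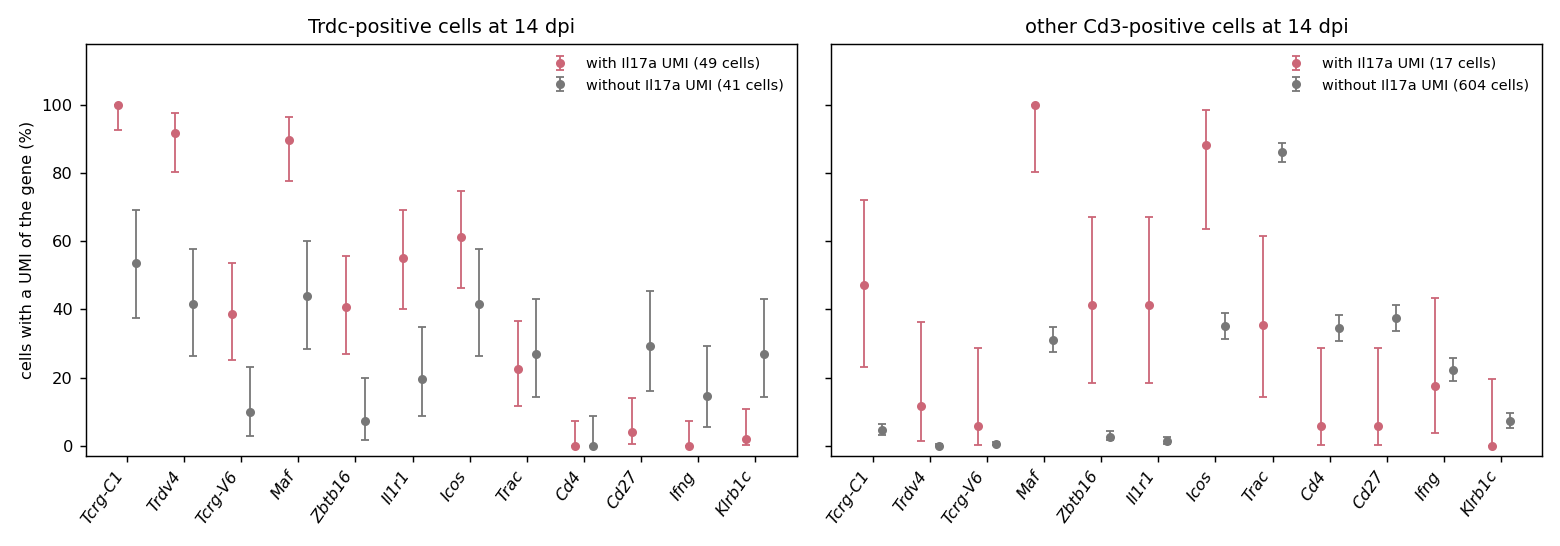
Percent of cells with a UMI of each gene (axis in percent, with exact 95% intervals) in cells with and without Il17a, for Trdc-positive and other Cd3-positive cells at 14 dpi. Maf was found in 44 of 49 Trdc-positive cells with Il17a and 18 of 41 without, and Cd4 in 1 of the 17 Il17a-positive other Cd3-positive cells.

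A wider list of 26 type 17 genes pointed the same way as the members. At 14 dpi 23 had enough UMIs, 17 were past 2-fold higher in Trdc-positive than in other Cd3-positive cells and none was past 2-fold lower, with a median log2 ratio of 2.41 against 0.13 over all genes and 7.86% of all genes past 2-fold higher. The list's highest ratios were those of Sox13, a factor of IL-17-producing gamma-delta T cells (7.55, interval 5.55 to 13.5, 37 UMIs against 1), 5830411N06Rik, a relative of Cd163l1 (4.38, 3.22 to 5.80), and Il1r1 (4.26, 3.55 to 5.06). The ratio of 5830411N06Rik rests on few cells: 2 of 49 Trdc-positive cells with Il17a and 3 of 41 without. In other Cd3-positive cells these counts were 1 of 17 and 2 of 604. Its interval takes no account of this spread over cells. The lowest were Il21r (−0.47), Batf (−0.39) and Stat3 (−0.23), whose intervals included 0. Il22, Il21 and Ccl20 had under 20 UMIs over both classes. At 3 dpi 16 genes of the list had enough UMIs, 9 were past 2-fold higher and none lower, with a median of 1.50. Over all genes at 3 dpi 15.0% were past 2-fold higher and 13.1% lower.

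A list of 16 type 1 genes, which mark interferon-gamma production and killing, lay on the other side. All 16 had enough UMIs at 14 dpi, none was past 2-fold higher and 8 were past 2-fold lower in Trdc-positive cells, with a median of −0.91, where 6.47% of all genes were past 2-fold lower. The chemokine gene Ccl5 had −1.61 (−1.74 to −1.49), the granzyme gene Gzmb −1.60 (−2.21 to −1.08) and Ifng −1.34 (−2.37 to −0.56). The activating receptor gene Klrk1 was the highest at 0.40 (0.06 to 0.71), followed by Il2rb (−0.24) and Klrd1 (−0.27). At 3 dpi 9 of 14 were past 2-fold lower and none higher, with a median of −1.74. Over all genes at 3 dpi 13.1% were past 2-fold lower and 15.0% higher. With genes that had no UMI in Trdc-positive cells set to their bound, 7 were past 2-fold lower and the median was −0.96.

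Of 13 alpha-beta, helper and regulatory T cell genes 10 had enough UMIs at 14 dpi, of which 6 were past 2-fold lower and none higher. Over all genes 6.47% were past 2-fold lower and 7.86% higher. Cd4 had 0 against 434 UMIs, at least 19.2-fold lower, and Foxp3, the regulatory T cell factor, 0 against 91, at least 4.03-fold lower. Cd8b1 had −2.96 (−3.59 to −2.44). The list's median was −2.11, or −1.78 with Cd4 and Foxp3 at their bounds. Icos, a costimulatory receptor, was the highest at 0.46 (0.10 to 0.80), and Trbc1 (−0.59) and Trbc2 (−0.66) followed.

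All 7 gamma-delta receptor genes with enough UMIs were past 2-fold higher in Trdc-positive cells at 14 dpi, Trdc among them by the gate itself. Over all genes 7.86% were past 2-fold higher. Trdv4 had a log2 ratio of 8.41 (7.38 to 9.98), Tcrg-V6 6.29 (4.83 to 8.84, 36 UMIs against 3), Tcrg-C1 5.35 (4.99 to 5.75), and Trgv2 the lowest at 2.83 (2.37 to 3.28). The gamma constant genes are close copies of each other, so counts among them may be shared out uncertainly.

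Of the cytokines that act on these receptors, Il23a, the IL-23 subunit that Il23r recognises, was at 4.55 CPM in myeloid cells at 3 dpi (401 UMIs in 263 of 6528 cells) and at 0.269 CPM at 14 dpi (20 UMIs in 14 of 6408 cells), and it had no UMI in either T cell class on either day. Il1b was at 792 CPM in myeloid cells at 3 dpi and 174 CPM at 14 dpi, and its RNA was also spread over the 23 NK cells at 3 dpi (816 CPM). Il17ra, the receptor chain shared by the IL-17 cytokines, was found in all 5 classes at 48.0 to 111 CPM at 3 dpi and 66.2 to 90.5 CPM at 14 dpi. In Trdc-positive over other Cd3-positive cells at 14 dpi, 5 of the 11 upstream genes had enough UMIs: Il12rb1, the partner chain of Il23r, was the only 1 past 2-fold higher at 1.42 (0.68 to 2.08), Tgfb1 had 0.67 and Il2rg, the partner chain of Il7r, 0.20. Il6ra (−2.36) and Il1b (−2.35) were past 2-fold lower on 2 and 1 UMIs in Trdc-positive cells, with intervals from −5.74 to −0.78 and from −8.25 to −0.39. Over all genes 7.86% were past 2-fold higher and 6.47% lower.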

How the data were processed

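The authors deposited 4 matrices of UMI counts per gene and cell barcode. Per the submitters' processing notes they were made with Cell Ranger on mm10; the matrix headers give software versions 3.0.1 and 3.1.0. Barcodes under 600 genes or over 10% mitochondrial UMIs were dropped. Cells with Itgam and lymphoid UMIs (410, 26, 540 and 870 in the order sham standard, sham ActD, 3 dpi, 14 dpi) were removed. The cells with the highest Scrublet doublet scores (291, 42, 774 and 931) were also removed. Their number was fixed by an assumed rate of 0.8% per 1000 barcodes and was not called from the scores. Classes were set by UMI thresholds. UMIs were summed per class and library. No count model was fitted, since each condition had 1 library. Ratios used 0.5 UMIs added per class and exact conditional intervals, and past 2-fold was counted for genes whose UMIs in both classes summed to 20 or more. Thinning drew 1000 or 2000 UMIs per cell. Gene positions came from GENCODE M21 by Ensembl ID and promoters from RefSeq by symbol. Gene lists, classes and the members were chosen with earlier results of these data known. Of each list, the 3 highest and 3 lowest ratios were to be named by rule. The gamma-delta receptor genes departed from it, with only Trgv2 named at the low end. Other genes were named after their values were seen. Results on 1 gene are not reported here. Scripts were tested on simulated counts. Python 3.11.15, scanpy 1.11.5, scipy 1.17.1, R 4.3.3 and edgeR 4.0.16 (TMM factors only) were used.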

Additional observations from a re-analysis of the deposited data

Results flagged for a closer look

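Small numbers of sham T cells held the members, in data outside the comparisons above. In the standard sham library the 2 Trdc-positive cells held 5 Il17a, 7 Il17f and 10 Il7r UMIs of 5296 UMIs in all. All the Il17a and Il17f UMIs were in 1 of the 2 cells. In the ActD sham library the 3 Trdc-positive cells held 66 Cd163l1, 24 Blk and 10 Il7r UMIs of 47870. The highest cell for each gene held 54 of the Cd163l1 and 19 of the Blk UMIs. These counts lie above the limit that a count of 0 allows.

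Cells that were removed or left without a class also held the members. At 14 dpi 13 removed cells held 42 Il17a UMIs, and 12 of the 13 passed the Cd3 threshold, 7 of them with Trdc, while 8 passed the myeloid threshold. Another 5 kept cells without a class held 16 Il17a UMIs. For Cd163l1 the removed cells held 112 UMIs and those without a class 31.

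Among members with 20 UMIs or more over both days in each T cell class, the difference between days had opposite signs in those classes for 2. For Il17re the log2 ratio of 14 over 3 dpi was 1.04 in Trdc-positive and −0.41 in other Cd3-positive cells, 1.44 apart, with intervals that included 0 in both classes. For Il7r it was 0.44 and −0.35, 0.79 apart. With 1 library per day these differences were not tested.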

How the results depend on the processing

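No paired analysis was possible because each condition had 1 library, and for the same reason no library could be left out. Over 27 results and 347 alternative values 315 moved by less than their 95% interval and 32 moved further. No log2 ratio changed sign, while the results that are shares could not change sign. Depth set the shares most. With cells thinned to 1000 UMIs, Trdc-positive shares at 14 dpi were 27.8% (Il17a), 0.0% (Il17f), 8.89% (Il23r), 1.11% (Ccr6), 5.56% (Il17re), 48.9% (Cd163l1), 22.2% (Blk) and 41.1% (Il7r), and 51.1% held at least 2 members; other Cd3-positive shares were 1.13% (Il17a), 0.161% (Il23r), 0.966% (Ccr6), 1.13% (Il17re), 0.161% (Cd163l1), 1.45% (Blk) and 25.3% (Il7r). With 2000 UMIs (86 and 613 cells), the Trdc-positive shares were 43.0% (Il17a), 19.8% (Il23r), 2.33% (Ccr6), 9.30% (Il17re), 45.3% (Blk) and 74.4% (Il7r), and the other Cd3-positive shares 1.47% (Il17a), 0.0% (Il23r), 1.14% (Ccr6), 1.79% (Il17re) and 39.6% (Il7r). Il17f was found in 0.161% of other Cd3-positive cells at 1000 UMIs, above the 0.0% of Trdc-positive cells, and for the other 7 members the shares were higher in Trdc-positive cells at both depths. For Ccr6 at 1000 UMIs this order rested on 1 of 90 cells (0.0281 to 6.04%) against 6 of 621 (0.355 to 2.09%). The Ccr6 intervals of these classes overlapped at both depths. Leaving out cells that passed the NK thresholds gave 86.2% with at least 2 members. The Il7r log2 ratio at 14 dpi was 1.44 with a Cd3 threshold of 1 UMI. It was 0.99 without the Cd3 condition on Trdc-positive cells, a setting that also left out those passing the NK thresholds. With TMM factors it was 0.97, so the last 2 choices put it under 2-fold. Leaving out the Trdc-positive cells with Trac UMIs gave a Trdc-positive share of 9.87% at 14 dpi. Other Cd3-positive cells were all kept in this setting, although 84.9% of them held Trac, so the removal was from 1 class only. Looser and stricter cell filters, doublets kept, Itgam cells kept, a Cd3 threshold of 3 UMIs, a Trdc threshold of 2 UMIs and no limit on B and myeloid UMIs moved none of the 27 results past their intervals.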

Other observations

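Genes detected in at least 10% of the Trdc-positive cells at 14 dpi were compared with the mean log2 level of the 8 members. The comparison ran over the 10 class and day combinations. Among the most alike of 5550 candidates were Nr1d1 (Pearson's r 0.976), Kcnk1 (0.961), Ppp1r14c (0.960), Coro2b (0.959), Ablim3 (0.958), Lingo4 (0.953) and Tcrg-V6 (0.951). Nr1d1 encodes the circadian repressor REV-ERB alpha. Nr1d1 was at 44.4 CPM in Trdc-positive and 4.72 CPM in other Cd3-positive cells at 14 dpi, and at 25.5 and 2.01 CPM at 3 dpi. Both 3 dpi values rest on few UMIs, as 3 counts make 38.3 and 2.01 CPM in these classes. Coro2b, Ablim3 and Lingo4, at 12.8 CPM in Trdc-positive cells at 3 dpi, were also under 38.3 CPM. Kcnk1, a potassium channel gene, was at 97.6 CPM in Trdc-positive and 5.90 CPM in other Cd3-positive cells at 14 dpi, and was detected in 32.2% of the former. The 10 points come from 2 libraries and the Trdc-positive class alone sets most of the likeness, so the values are a description.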
